A study of Mus musculus with 24 samples.

Results

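The *Zscan4* cluster is a family of 6 near-identical genes on mouse chromosome 7, *Zscan4a*, *Zscan4b*, *Zscan4c*, *Zscan4d*, *Zscan4e* and *Zscan4f*. They were picked out by symbol and matched to Ensembl gene identifiers, with no measured value in the rule but with earlier results of these data known, and they make up 6 of the 55471 genes in the SLIM-seq table and 6 of the 25739 genes in the *Ythdc1* knockdown table. SLIM-seq is a low-input form of m6A sequencing, in which an antibody against N6-methyladenosine (m6A) captures RNA (IP) and the same kind of RNA without capture serves as input. It was made in triplicate, IP and input, on wild-type B6D2F1 (C57BL/6J x DBA/2N) material at 3 stages: MII oocytes of superovulated females, zygotes late in the 1-cell stage (L1C), and embryos late in the 2-cell stage (L2C), the embryos from B6D2F1 females mated with B6D2F1 males. In the knockdown experiment, zygotes of the same strain received Cas13d mRNA, which encodes an RNA-guided RNase, together with crRNAs against *Ythdc1* (KD, 3 libraries) or, per the methods of the study, Cas13d mRNA alone (Ctrl, labelled NC, 3 libraries), and RNA was taken at L2C. The control therefore carries Cas13d but no crRNA, and the knockdown leaves some *Ythdc1* RNA. Nothing in the labels says how many embryos were pooled per library or whether replicates came from separate collections, so P values measure only the spread between these libraries, which may be technical.

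*Zscan4* genes encode DNA-binding proteins with a SCAN domain, which mediates dimerization, and C2H2 zinc fingers. In mice they are known for a burst of expression at the 2-cell stage, around zygotic genome activation (ZGA), and for rare bouts in embryonic stem cells in which ZSCAN4 acts on telomeres and on DNA methylation. The pioneer factor DUX activates them. YTHDC1 is the nuclear reader of m6A.

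In the GRCm38 assembly the members lie within 608.1 kb of chromosome 7, from position 10794242 to 11402318. *Zscan4a* (ENSMUSG00000110097) is at chr7:10794242-10799057 on the minus strand and *Zscan4b* (ENSMUSG00000095339) at chr7:10900740-10905050, also minus. *Zscan4c* (ENSMUSG00000054272) follows on the plus strand at chr7:11005745-11010547 and *Zscan4d* (ENSMUSG00000090714) on the minus strand at chr7:11161374-11166159. *Zscan4e* (ENSMUSG00000095936, minus, chr7:11306378-11310682) and *Zscan4f* (ENSMUSG00000070828, plus, chr7:11397915-11402318) close the row. Besides the members, 31 genes are annotated between the first and the last of them, and no member overlaps any. Of the 3 further copies named as pseudogenes, *Zscan4-ps1* (chr7:11065139-11069691, minus) lies between *Zscan4c* and *Zscan4d*, and *Zscan4-ps2* and *Zscan4-ps3* lie beyond *Zscan4f*. The names do not follow the annotation used here: GENCODE M21 lists *Zscan4a* as an unprocessed pseudogene and all 3 -ps copies as protein-coding. Each of the 9 copies has 4 exons, and the 8 with an annotated coding frame have 505 or 506 codons.

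**Figure D1:**
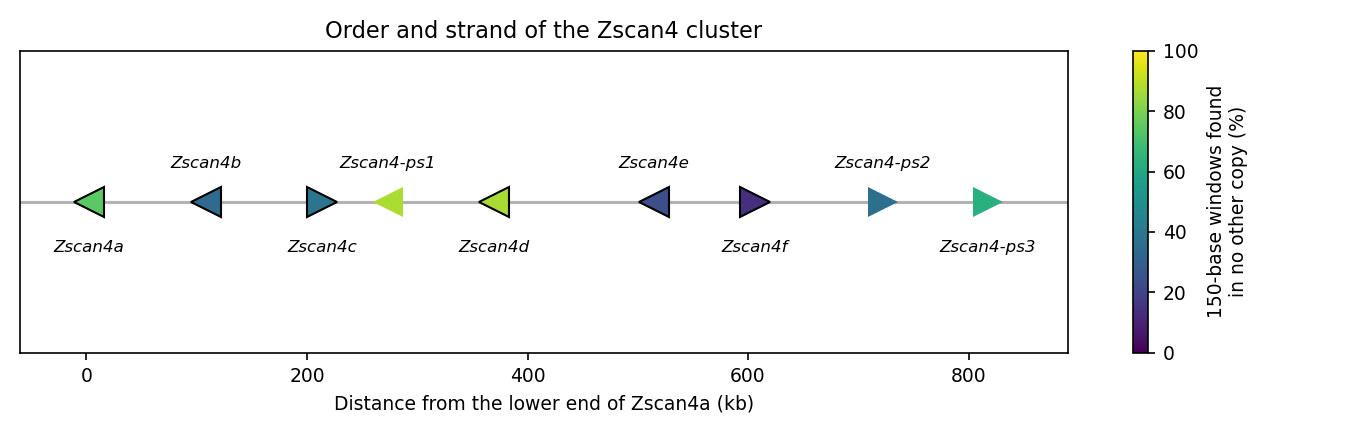
Order of the 9 *Zscan4* copies along chromosome 7, as distance in kb from the lower end of *Zscan4a*. Triangles stand at gene midpoints, are larger than the genes themselves and point in the direction of transcription, black outlines mark the 6 members, and colour gives the percentage of 150-base windows of the transcript that are found in no other of the 9 copies, which is lowest in *Zscan4f* (13.8%) and highest in *Zscan4-ps1* (87.4%) and *Zscan4d* (87.0%).

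The copies also resemble each other in front of the gene, where aligned pairs shared 93.3% to 99.6% of their bases over the 250 bases upstream of the start. The stretches printed here, from the RefSeq copy of GRCm38, are the 100 bases around the TATA box upstream of 4 copies that differ in their expression, 5′ to 3′ on the strand of the gene, with the TATA box (TATAAA) in capitals:
Zscan4a, chr7:10799082-10799181, minus: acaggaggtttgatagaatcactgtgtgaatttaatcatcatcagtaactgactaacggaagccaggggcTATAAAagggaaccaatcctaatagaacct
Zscan4d, chr7:11166184-11166283, minus: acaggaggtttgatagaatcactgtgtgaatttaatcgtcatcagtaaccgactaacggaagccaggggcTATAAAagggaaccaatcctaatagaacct
Zscan4f, chr7:11397814-11397913, plus: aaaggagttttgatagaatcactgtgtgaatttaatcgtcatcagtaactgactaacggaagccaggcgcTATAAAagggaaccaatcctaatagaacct
Zscan4-ps1, chr7:11069727-11069826, minus: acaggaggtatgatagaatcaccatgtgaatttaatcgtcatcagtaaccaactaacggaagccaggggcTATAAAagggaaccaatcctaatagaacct
Over these 100 bases *Zscan4a* differed from *Zscan4d* at 2 positions, *Zscan4f* at 4 and *Zscan4-ps1* at 4. Counting both strands, all 9 copies held TATAAA once within 250 bases upstream of their annotated start, and on the strand of the gene. On either strand, the motif was present in 12.368% of 32851 RefSeq promoters. Within the transcripts, the m6A context GGACT occurred once in every copy, 0.44 to 0.57 times per kb against a median of 1.01 over 21822 protein-coding genes.

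This likeness limits what the counts of a single member mean. Aligned transcripts shared 96.6% to 99.8% of their bases, and *Zscan4f* and *Zscan4-ps2* were the closest pair. The 18 SLIM-seq libraries were counted by kallisto, which divides a read that fits several copies among them by an estimate, over whole gene spans with introns. The share of 31-base words in the gene span that are in no other of the 9 copies was 36.5% for *Zscan4d* and 30.3% for *Zscan4a*, but for *Zscan4f* this was 2.2%, for *Zscan4c* 5.9%, for *Zscan4b* 8.9% and for *Zscan4e* 10.2%. The knockdown libraries were counted on exons from uniquely placed reads, so a copy with few unique windows loses reads rather than sharing them. Therefore each comparison was also made on the cluster sum, the counts of the 6 members added within each library, which does not depend on how reads were divided among the members, although it does depend on how they were told apart from the 3 pseudogene copies. The embryos also carry DBA/2N alleles, and the reference is C57BL/6J: the effect of differences in sequence or copy number between these strains was not tested.

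Total estimated counts were 11107421 to 39739950 per SLIM-seq library, and the knockdown table holds 3276715 to 5463868 counts per library. The sums of the oocyte and 2-cell markers followed the labels, but not every single marker did. Levels are in CPM (counts relative to library size, scaled by TMM). The 8 oocyte transcripts summed to 22964 to 23621 CPM in MII inputs and 604 to 658 in L2C inputs. The 6 markers of the 2-cell embryo summed to 33.8 to 42.4 CPM in MII inputs and 257 to 315 in L2C inputs. Among these, *Tcstv1* went the other way, from 27.3 to 34.2 CPM in MII inputs to 16.2 to 19.2 CPM in L2C inputs. *Duxf3* was higher at L1C than at L2C. The oocyte marker *Zp3* was higher in L2C inputs (110 to 129 CPM) than in L1C inputs, although below its MII inputs (177.5 to 197.7 CPM). Of the 7 cumulus cell markers, *Ptx3* and *Foxl2* were at 0 in all L2C inputs, and the list summed to 237 to 256 CPM there, of which *Amhr2* made up 235 to 254. It summed to 6.64 to 11.3 CPM in the other inputs. The 4 sperm markers summed to at most 3.64 CPM in MII and L1C inputs and to 53.7 to 69.8 CPM in L2C inputs, of which *Prm1* made up 53.1 to 68.6.

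The first comparison followed the members through the inputs, the RNA-seq of each stage. The cluster was almost silent in MII oocytes, rose in zygotes and rose again at L2C. Its sum was 1.51, 1.85 and 2.25 CPM in the 3 MII inputs, 108, 86.7 and 68.1 CPM in the L1C inputs, and 405, 289 and 436 CPM in the L2C inputs. The 3 stages did not overlap. The log2 change of the sum was 5.57 from MII to L1C (SE 0.25, adjusted p = 4.0e-10) and a further 2.10 from L1C to L2C (SE 0.19, adjusted p = 1.0e-07), by edgeR's quasi-likelihood test with Benjamini-Hochberg adjustment over 19903 genes. The second step is 4.29-fold. All 6 members passed the test upwards at both steps, where 31.9% of genes tested were called higher from MII to L1C and 44.1% from L1C to L2C, and 24.3% and 38.8% lower. Among all genes tested, 2.78% had a higher log2 change than the sum at the first step and 27.1% at the second.

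At MII *Zscan4d* made up 60.8% to 66.5% of the little signal present, and *Zscan4f* (0 to 29.6%) and *Zscan4c* (0 to 30.3%) most of the rest, at levels that varied between libraries. The inputs of *Zscan4d* held 23, 23 and 26 estimated counts (0.99, 1.15 and 1.47 CPM), which rose to 40.3, 32.1 and 26.7 CPM at L1C. *Zscan4a*, *Zscan4b* and *Zscan4e* had at most 3 counts in every MII input, and *Zscan4b* was at 0 in all of them. Taking 3 counts in the shallowest MII input as the floor, *Zscan4a* was at least 62.8-fold higher at L1C, *Zscan4e* at least 29.3-fold and *Zscan4b* at least 14.6-fold. The pseudogene *Zscan4-ps1* behaved otherwise: it was already at 29.7, 29.1 and 29.9 CPM in MII inputs, more than the 6 members together. It stood at 55.9, 43.0 and 32.4 CPM at L1C (log2 0.57, SE 0.21, adjusted p = 0.033) and at 13.8, 9.18 and 15.9 CPM at L2C (log2 -1.75 from L1C, SE 0.22, adjusted p = 3.1e-06). *Zscan4-ps2* and *Zscan4-ps3* had the pattern of the members, with log2 changes of 1.65 and 1.87 from L1C to L2C. With the 3 pseudogenes added to the sum, the log2 changes were 2.27 and 1.59, smaller at both steps but with the same direction and call.

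Levels of different members can be compared in TPM, which divides counts by gene length. In L1C inputs the order was *Zscan4d* (47.5 ± 9.84 TPM, mean ± SD, n = 3), *Zscan4f* (28.7 ± 8.10), *Zscan4c* (26.5 ± 5.63), *Zscan4a* (15.1 ± 4.64), *Zscan4e* (7.99 ± 2.23) and *Zscan4b* (3.96 ± 0.54). The ranges of *Zscan4f* and *Zscan4c* overlapped, as did those of *Zscan4a* and *Zscan4e*, although *Zscan4a* was above *Zscan4e* within each L1C input. At L2C *Zscan4f* led. Its inputs held 177, 124 and 180 TPM, all above the 116, 68.4 and 116 TPM of *Zscan4d*. *Zscan4c* followed at 82.0, 52.4 and 86.4 TPM and *Zscan4a* at 55.2 ± 8.20, and neither range was apart from the one before it. Within each L2C input, however, *Zscan4d* was above *Zscan4c* and *Zscan4c* above *Zscan4a*. *Zscan4e* (14.2 ± 4.68) and *Zscan4b* (10.4 ± 0.26) were the lowest and overlapped each other. The second L2C input was the lowest of the 3 in TPM for each of the 6 members, and least so for *Zscan4b*, where the 3 libraries lay between 10.1 and 10.6 TPM.

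**Figure D2:**
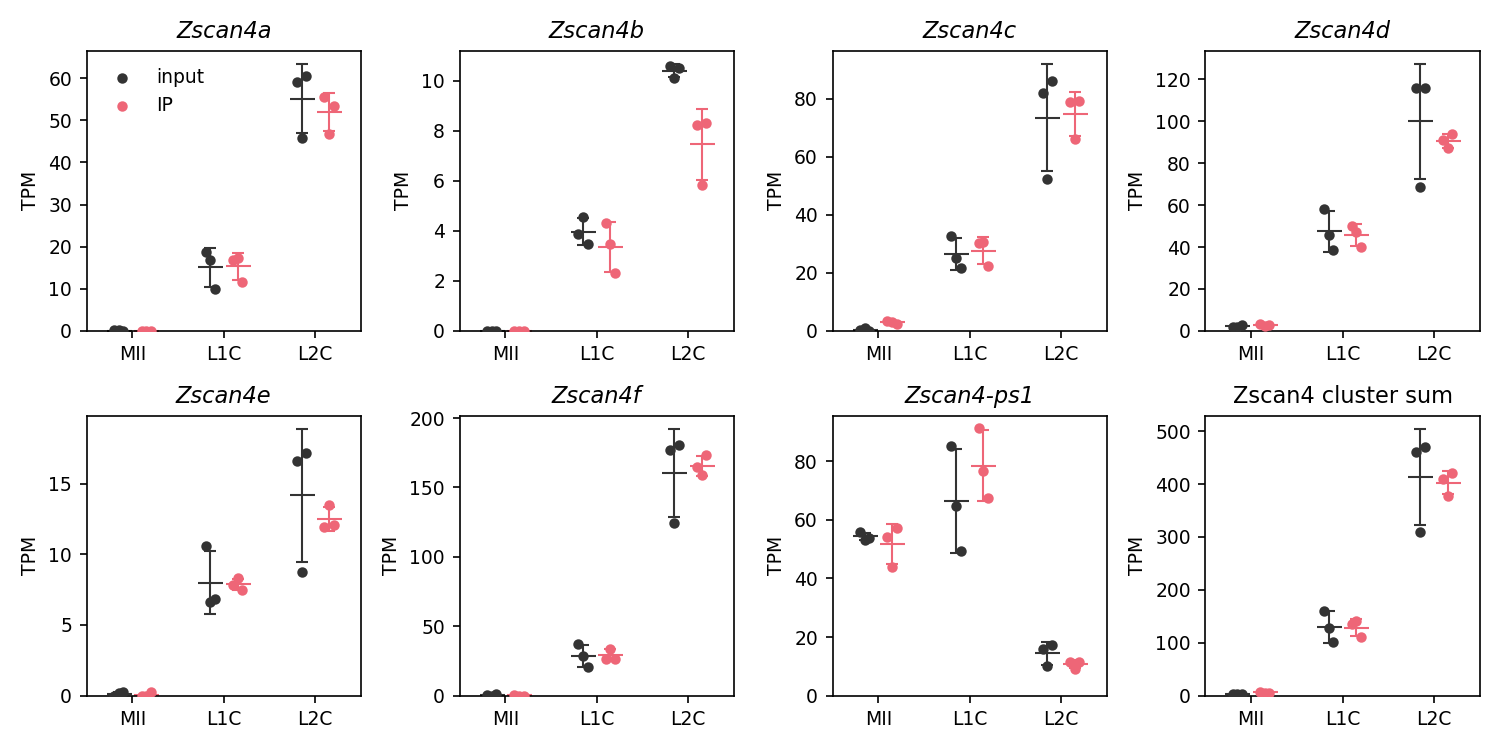
TPM of each *Zscan4* member, of *Zscan4-ps1* and of the sum of the 6 members (vertical axes, linear, each from 0) in MII oocytes, L1C and L2C embryos. Each point is 1 library (black input, red IP), and bars give mean ± SD of 3 libraries; the 6 members rise from MII to L2C, while *Zscan4-ps1* is at 53.2 to 55.8 TPM in MII inputs and 9.96 to 17.4 TPM in L2C inputs.

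The members did not rise in proportion. From L1C to L2C the log2 change was 2.93 for *Zscan4f* (SE 0.28) and 2.30 for *Zscan4a* (SE 0.22), but 1.52 for *Zscan4d* (SE 0.20) and 1.27 for *Zscan4e* (SE 0.29). *Zscan4c* and *Zscan4b* lay between them, at 1.92 and 1.84. *Zscan4f* accounted for 20.6% ± 1.21 of the estimated counts of the 6 members at L1C and for 37.0% ± 0.98 at L2C, while *Zscan4d* went from 37.8% ± 1.21 to 24.9% ± 1.65. These groups did not overlap, and the exact two-sided permutation test on each share gave p = 0.10, the smallest that 3 against 3 libraries allow (Benjamini-Hochberg adjusted p = 0.27 over 24 share tests). *Zscan4d* is the member with the most sequence of its own and *Zscan4f* the one with the least, and what the division of shared reads adds to this difference was not tested.

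Among genes that other work places in the same 2-cell program, 15 of 18 tested rose from L1C to L2C and 2 fell, with a median log2 change of 2.69 against 0.17 over all genes. Over all genes tested, 44.1% were called higher at this step and 38.8% lower. Among those with the highest levels, *Usp17lb*, a member of a deubiquitinase family, went from 12.8 ± 1.23 to 470.2 ± 39.9 CPM, and *Tmem92* from 61.6 ± 6.60 to 208 ± 25.9 CPM. *Sp110* rose from 41.4 to 92.9 CPM. *Duxf3*, the gene of the activator DUX, was at 0.37 ± 0.21 CPM in MII inputs, at 98.9 ± 18.6 at L1C and at 6.27 ± 0.27 at L2C. It thus fell (log2 -3.98, SE 0.20) over the step at which every *Zscan4* member rose. Of 12 regulators of *Zscan4* and of the 2-cell program, with *Duxf3* counted on both lists, 8 rose and 3 fell at that step. *Nelfa* (216 to 434 CPM) and *Rif1* (43.1 to 183 CPM) rose, and *Chaf1a* (149.6 to 112 CPM) and *Setdb1* (181 to 78.9 CPM), the latter an H3K9 methyltransferase, fell.

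For genes tied to what ZSCAN4 does, 3 of 8 tested rose and 3 fell from L1C to L2C. Those counts are close to the shares over all genes tested, 44.1% called higher and 38.8% lower. *Uhrf1*, which guides DNMT1 to DNA, fell from 382 ± 56.6 to 31.9 ± 1.44 CPM and *Dnmt1* itself from 194 to 121 CPM, and *Terf1* and *Hdac1* rose, from 134 to 178 and from 2.92 to 69.3 CPM. Other SCAN zinc finger genes, which lie elsewhere in the genome, had 6 of 11 tested higher and 1 lower. Of the 4 most abundant, *Zscan5b* rose from 4.42 to 274 CPM and *Zscan21* from 112 to 170 CPM, while *Zscan29* (51.0 and 45.5 CPM) and *Zscan10* (11.7 and 10.9 CPM) did not pass the test.

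Of the 30 other annotated genes between the first and the last member, leaving *Zscan4-ps1* out, 9 had enough reads to be tested. From L1C to L2C 6 of these rose and 1 fell, where 44.1% of all genes tested were called higher and 38.8% lower. *Gm18204* rose by 6.97 on the log2 scale (SE 0.22) and *Gm6909* by 2.42 (SE 0.24), and *Gm18122*, at 0 counts in MII and L1C inputs, had a mean of 27.5 counts in L2C inputs, whereas *Gm7203* fell by 1.66 (SE 0.21).

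The genes whose level was most like the cluster sum, by Pearson's r of log2(CPM + 1) over the 18 SLIM-seq libraries and among 16110 protein-coding genes, were *Gpat3* (r = 0.994), *Usp17lc* (r = 0.991), *Slc18b1*, *BC080695* (both r = 0.988) and *Eif5a2* (r = 0.987). These libraries share their stages and pairs of them their RNA, so r is a description. *Usp17lc* was at 0.12, 22.2 and 106 CPM at MII, L1C and L2C, and *BC080695* at 0.16, 9.79 and 38.1 CPM. *Gpat3*, a glycerol-3-phosphate acyltransferase, was the only one of the 5 with a level over 2 CPM in oocytes, at 7.43 CPM.

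The second comparison asked whether *Zscan4* RNA was enriched by the m6A antibody. At L1C and at L2C no member passed the test. At L2C the cluster sum was 378, 359 and 383 CPM in IP libraries against 392, 274 and 422 CPM in inputs, on the scale common to all 18 libraries, and the IP libraries fell inside the range of the inputs. The log2 IP/input was 0.041 (SE 0.17, 95% interval from the SE -0.30 to 0.38, adjusted p = 0.87). At L1C the sums were 84.5, 94.6 and 76.5 CPM in IP and 124, 98.6 and 76.5 CPM in inputs, with a log2 IP/input of -0.23 (SE 0.17, interval -0.57 to 0.11, adjusted p = 0.34). Scaling to library size raised every log2 IP/input by 0.30 at L1C and 0.25 at L2C, which turned the sign at L1C (0.074, adjusted p = 0.77) without a call. At L1C 0 of 6 members passed edgeR's test in either direction, and 0 of 6 at L2C, where 15.8% and 22% of 21950 genes were called higher and 18.2% and 22% lower. At an unadjusted P value under 0.05 no member passed at either stage. DESeq2 called none at either stage.

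*Zscan4f*, the most abundant member at L2C, held 144, 144 and 150 CPM in IP and 143, 104 and 154 CPM in inputs (log2 0.13, SE 0.27). *Zscan4d* held 87.0, 86.1 and 88.9 CPM against 102, 63.0 and 108 CPM (log2 -0.061, SE 0.18). The lowest log2 IP/input was that of *Zscan4b*, at -0.40 (SE 0.23, adjusted p = 0.17) at L2C and -0.49 (SE 0.25, adjusted p = 0.15) at L1C. Its IP libraries at L2C, 7.05, 5.11 and 7.08 CPM, were all below its inputs, 8.37, 8.34 and 8.75 CPM. Fitted on the L2C libraries alone, *Zscan4b* passed the test downwards (log2 -0.44, adjusted p = 0.039). The share of each member in the cluster differed between IP and input by at most 2.12 percentage points at L2C and 1.35 at L1C, and no share apart from that of *Zscan4b* at L2C separated the groups.

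**Figure D3:**
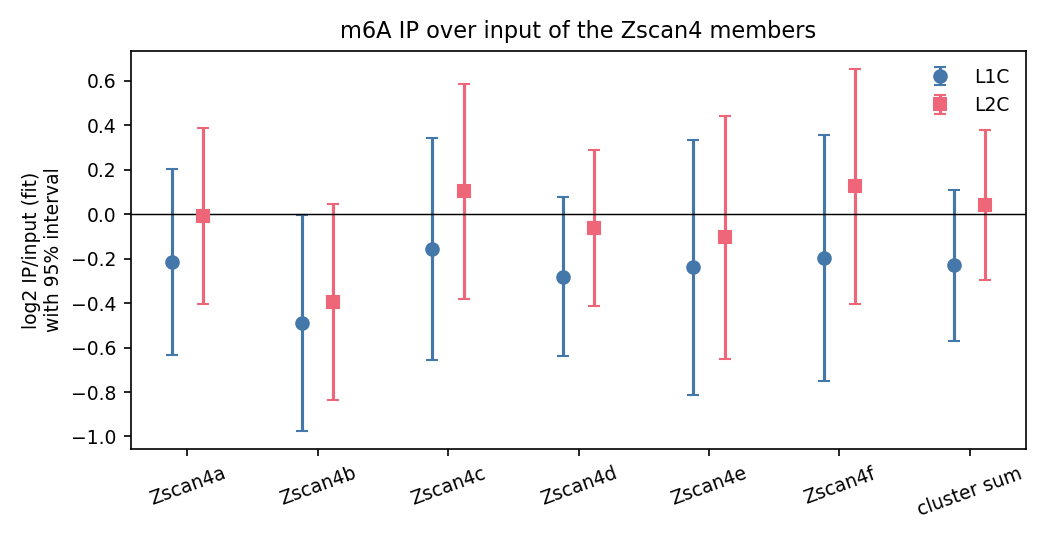
Log2 IP/input of each member and of the cluster sum at L1C (blue circles) and L2C (red squares), as fitted by edgeR, with 95% intervals from the SE. Values lie between -0.49 and 0.13, and every interval includes 0 apart from that of *Zscan4b* at L1C, which ends at -0.0018 and whose test did not pass after adjustment.

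A rule after that of the study for m6A-tagged RNA was also applied to edgeR's values: a positive log2 IP/input, an unadjusted P value below 0.05 and over 1 count in all 3 inputs, which is stricter than the study, where genes found in 2 of 3 replicates were kept. It was met by 0 of 6 members at L1C and L2C, against 18.6% and 23.9% of genes tested. At MII it was met by 0 of 6 members, against 19.2% of genes, but *Zscan4c* had over 1 count in 2 of the 3 inputs and met the rest, so that it passes if 2 inputs are enough. Of the other 2-cell genes, 11 of 18 were higher in IP than in input at L2C and 3 were lower. Over all genes tested, 22% were called higher and 22% lower. The regulators of *Zscan4* had 3 of 12 higher and 4 lower, the partners of ZSCAN4 2 of 8 higher and 3 lower, and the other SCAN genes 0 of 12 higher and 4 lower. *Tmem92* was at 349 ± 48.4 CPM in IP and 199.9 ± 22.9 in input (log2 0.81, SE 0.14) and *Sp110* at 151 against 89.3 CPM, whereas *Usp17lb* was lower in IP (331 against 452 CPM). Whether these genes differ from *Zscan4* in their enrichment was not tested.

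In MII oocytes the members were close to the detection limit and gave a different picture. *Zscan4a*, *Zscan4b* and *Zscan4e* had at most 3 counts in all 6 libraries, and no ratio is given. *Zscan4c* held 43.2, 39.7 and 28.3 estimated counts in IP (2.46, 2.08 and 1.73 CPM) and 1.7, 11.4 and 0 in the inputs (0.11, 0.66 and 0 CPM). The groups did not overlap, and *Zscan4c* was the 1 member called (log2 3.00, SE 0.52, adjusted p = 1.1e-04, and log2 5.04 without MII input replicate 2), where 17.7% of genes were called higher and 21% lower. *Zscan4d*, with 1.61 to 2.46 CPM in IP and 1.21 to 1.74 CPM in input, did not pass (log2 0.50, SE 0.28, adjusted p = 0.18), nor did *Zscan4f* (log2 -2.08, SE 1.01, adjusted p = 0.11). Both depend on the processing: *Zscan4d* passed upwards with library size scaling (adjusted p = 0.043), and *Zscan4f* downwards with DESeq2 (adjusted p = 0.018), without the filter on low counts (adjusted p = 0.0049) and without MII input replicate 2 (log2 -2.66) or MII IP replicate 1 (log2 -6.39). *Zscan4f* and *Zscan4c*, whose transcripts are 99.6% identical, took turns in the inputs. *Zscan4f* held 8.78, 0 and 12.0 estimated counts there, 0 in the library in which *Zscan4c* had 11.4, and 5.19, 0 and 0 in IP. What the division of reads between these copies adds to the ratio of *Zscan4c*, and to its value without MII input replicate 2, was not tested.

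The cluster sum at MII was 5.20, 3.68 and 3.88 CPM in IP and 1.85, 2.22 and 2.68 CPM in input (log2 0.93, SE 0.24, adjusted p = 0.0050). *Zscan4-ps1*, whose transcript is at least 96.8% identical to those of the members, was 29.1 to 39.1 CPM in the same IP libraries and 34.9 to 36.3 CPM in the inputs (log2 -0.033, SE 0.20). With the pseudogenes added, the sum was 41.4, 32.9 and 43.0 CPM in IP and 38.3, 37.1 and 38.3 CPM in input (log2 0.045, adjusted p = 0.91). The 6 members held 64.2 to 91.1 estimated counts per IP library and 34.8 to 40.5 per input, against 531.5 to 689 of *Zscan4-ps1* in the inputs. In each MII library the estimated counts of the 9 copies added up to a whole number within the rounding of the deposited values, 572 to 726, although those of the 6 members did not, so reads were divided between the members and the pseudogenes. The enlarged sum is mostly *Zscan4-ps1*, and whether reads of *Zscan4-ps1* assigned to the members made up the call was not tested.

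The change of IP/input between stages was -3.16 on the log2 scale for *Zscan4c* from MII to L1C (SE 0.58, adjusted p = 0.0018) and -2.90 from MII to L2C (SE 0.58, adjusted p = 0.0015), and -5.20 and -4.94 without MII input replicate 2, in an interaction test in which 4.21% and 9.21% of genes were called lower and 3.13% and 11.1% higher. *Zscan4f* had changes of the opposite sign, 1.89 (SE 1.05, adjusted p = 0.34) and 2.21 (SE 1.04, adjusted p = 0.15). The second passed with DESeq2 (adjusted p = 0.028), without the filter on low counts (adjusted p = 0.0081) and without MII input replicate 2 (2.78) or MII IP replicate 1 (6.51). For the cluster sum the change was -1.16 (adjusted p = 0.022) and -0.89 (adjusted p = 0.042). These calls of the sum were unstable. The first was lost in 3 of 18 fits without 1 library (MII IP replicate 1, MII input replicate 1 or 2, adjusted p up to 0.081), and the second in 8 of 18, without any of these 3, L2C input replicate 1 or 3, or any L2C IP replicate (adjusted p up to 0.13). With the replicate number as a block the second had an adjusted p of 0.053, and with the pseudogenes added neither passed (-0.19 and -0.019). From L1C to L2C neither the sum (0.27, SE 0.24, adjusted p = 0.54) nor any of the 6 members changed in IP/input by edgeR's test, where 5% of genes were called higher and 4.47% lower, none at an unadjusted P value under 0.05 and none by DESeq2.

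The third comparison was of *Ythdc1* KD with Ctrl at L2C. *Ythdc1* itself was at 523, 541 and 519 CPM in KD and 1080, 1098 and 994 CPM in Ctrl (SE of the log2 change 0.062, adjusted p = 1.3e-10), groups that did not overlap. The sum of the cluster was 369, 330 and 386 CPM in KD and 1087, 1041 and 945 CPM in Ctrl, groups far apart, with a log2 change of -1.50 (SE 0.07, adjusted p = 5.6e-12 over 7433 genes), or 2.84-fold. CPM here are relative to the genes in the knockdown table and cannot be set beside those of the SLIM-seq libraries. In bulk RNA, fewer embryos or blastomeres that express *Zscan4* and less *Zscan4* RNA in each cannot be told apart.

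Of the 6 members 5 were called lower, where 37.4% of genes tested were called lower and 33.5% higher, and the median log2 change over all genes was -0.062. *Zscan4c* was at 44.2, 42.9 and 52.1 CPM in KD and 235, 233 and 221 CPM in Ctrl (log2 -2.30, SE 0.10, adjusted p = 1.2e-12). *Zscan4d*, with the most counts, was at 151, 129 and 162 CPM against 535, 489 and 436 CPM (log2 -1.72, SE 0.09). *Zscan4f* was at 45.9, 45.1 and 49.2 CPM against 136, 156 and 139 CPM (log2 -1.61, SE 0.10). The 2 members with the fewest counts were lower as well. *Zscan4e* held 14 to 18 counts in KD libraries and 58 to 115 in Ctrl libraries (log2 -2.37, SE 0.25), and *Zscan4b* 15 to 33 against 42 to 98 (log2 -1.56, SE 0.29, adjusted p = 1.0e-04). By the thresholds of the study applied to edgeR's values, which ask for an unadjusted P value under 0.05 and a log2 change beyond 1 in either direction, these 5 members were lower too, against 22.5% of genes, and 14.7% were higher.

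*Zscan4a* stood apart. It was at 119, 105 and 113 CPM in KD and 149, 122 and 120 CPM in Ctrl, groups that came within 1 CPM of each other without overlap (log2 -0.22, SE 0.10, adjusted p = 0.057). It passed the test with library size scaling (log2 -0.34, adjusted p = 0.0048), which lowered every log2 value by 0.12, so whether it counts as lower depends on the scaling. Without Ctrl replicate 1, its highest library, the log2 change was -0.098 (adjusted p = 0.41), and without KD replicate 2 it was -0.17 (adjusted p = 0.19). Its 95% interval from the SE, -0.41 to -0.024, lay above that of each other member, the nearest of which was *Zscan4b* with -2.14 to -0.99. Accordingly, *Zscan4a* made up 12.7% ± 0.98 of the cluster's counts in Ctrl and 31.1% ± 1.67 in KD, and *Zscan4c* went from 22.5% ± 0.93 to 12.8% ± 0.77 (exact two-sided permutation p = 0.10 each, the smallest possible, adjusted p = 0.27). *Zscan4a* is the copy annotated as a pseudogene, and 74.9% of its 150-base windows are in no other of the 9 copies. The 3 copies named as pseudogenes fell with the other members: *Zscan4-ps1* by 1.34 (SE 0.14), *Zscan4-ps2* by 1.67 (SE 0.13) and *Zscan4-ps3* by 1.38 (SE 0.18) on the log2 scale.

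**Figure D4:**
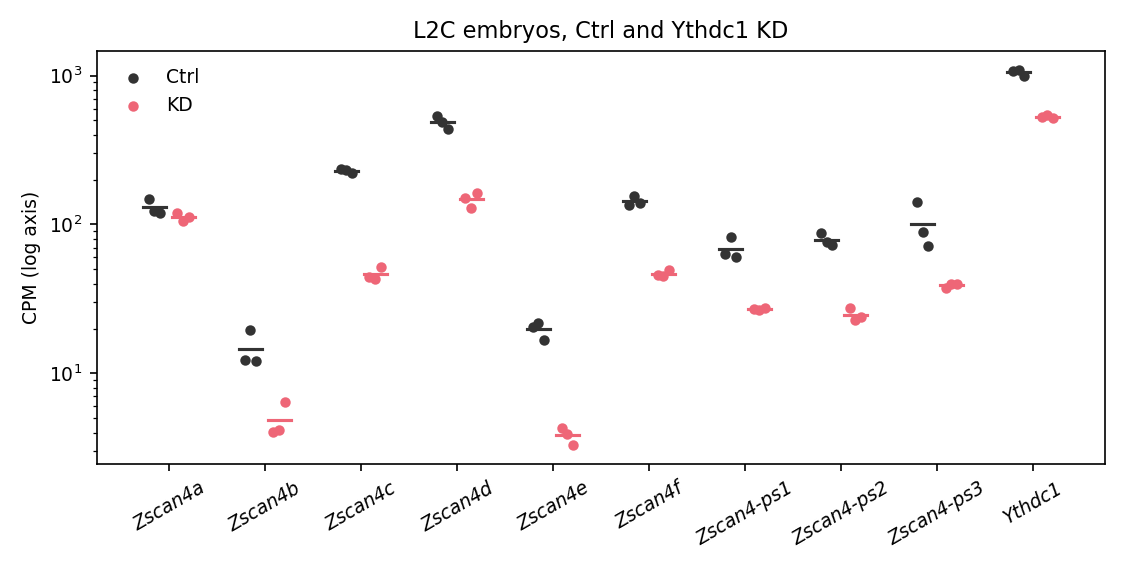
CPM on a log axis of the 6 members, the 3 pseudogenes and *Ythdc1* in L2C embryos of the knockdown experiment. Points are libraries (black Ctrl, red KD, 3 each) and short lines their means; Ctrl and KD are apart for every gene shown, and the distance is smallest for *Zscan4a* (105 to 119 CPM in KD, 120 to 149 CPM in Ctrl).

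Counted on unique exonic reads, the order of the members was another one than in the inputs. Per kb of exon, Ctrl libraries held 1024 ± 337 counts of *Zscan4d*, 477 ± 127 of *Zscan4c*, 344 ± 87.1 of *Zscan4f* and 273 ± 93.5 of *Zscan4a*, and 52.6 ± 17.6 and 38.7 ± 15.5 of *Zscan4e* and *Zscan4b*. Divided instead by the number of 150-base windows found in no other of the 9 copies, the Ctrl counts were 2.91 ± 0.74 per window for *Zscan4f*, 1.31 ± 0.35 for *Zscan4c*, 1.26 ± 0.41 for *Zscan4d* and 0.39 ± 0.13 for *Zscan4a*. On that scale *Zscan4f*, the member with the lowest share of such windows (13.8%), was the highest, while per kb of exon it was below *Zscan4d* and *Zscan4c*. It also led in the L2C inputs, but what the divisor adds to its place here was not tested. A comparison within 1 member between KD and Ctrl is not affected by such a division.

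**Figure D5:**
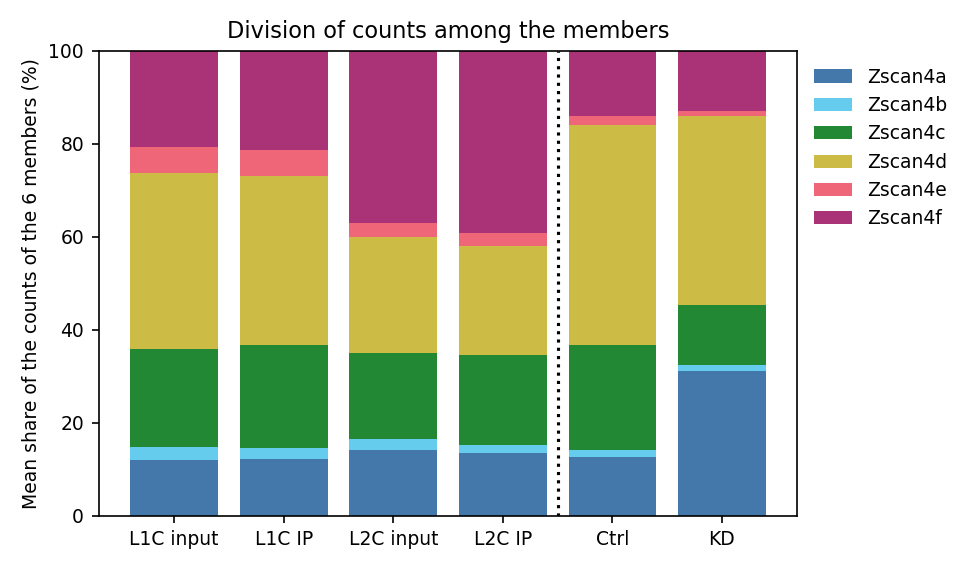
Mean share of each member in the counts of the 6 members (stacked bars, %), in L1C and L2C inputs and IPs and, right of the dotted line, in Ctrl and KD libraries, which were counted in another way (3 libraries per bar). IP bars lie within 2.12 percentage points of their inputs, *Zscan4f* takes 20.6% at L1C and 37.0% at L2C, and *Zscan4a* 12.7% in Ctrl and 31.1% in KD.

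The knockdown table holds 11 of the other 2-cell genes. Of these, 10 were called lower and 1 higher, with a median log2 change of -1.35. Over all genes tested, 37.4% were called lower and 33.5% higher. *Zfp352*, a 2-cell zinc finger gene, was at 203 ± 15.2 CPM in KD and 784 ± 25.3 in Ctrl, *Usp17lb* at 476 ± 30.8 against 1216 ± 36.2, *Tdpoz1* at 143 against 351, and *Sp110* at 188 against 335 CPM. *Usp17le* was the one that rose (log2 0.37, SE 0.15). Of the genes with a profile most like that of *Zscan4*, *Usp17lc* fell by 2.69 (SE 0.09) and *BC080695* by 2.91 (SE 0.14) on the log2 scale, *Eif5a2* by 0.44 (SE 0.13), and *Gpat3* did not pass the test (log2 0.17, SE 0.09, adjusted p = 0.097). *Slc18b1* was not in the table.

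None of the 5 regulators of *Zscan4* in the table was called lower, against 37.4% of genes tested, and 3 were higher, against 33.5%. *Duxf3*, *Dppa2* and *Dppa4* lie outside the table. The 3 were *Rif1* (5083 against 4538 CPM, log2 0.16), *Trim28* (409.5 against 305 CPM, log2 0.43) and *Nelfa* (122 against 97.3 CPM, log2 0.32), while *Setdb1* (158 against 135 CPM) did not pass. Scaling to library size lowers each of these log2 values by 0.12. Among partners of ZSCAN4, *Terf1* (762 against 610.4 CPM) and *Hdac1* (392 against 326 CPM) rose and *Tet2* (17.9 against 25.7 CPM) fell. Other SCAN genes had 4 of 6 tested higher and none lower, among them *Zscan5b* (620.3 against 532 CPM), *Zscan21* (109.6 against 92.2 CPM) and *Zscan29* (62.4 against 45.3 CPM).

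Within the cluster's own stretch of chromosome, 5 other genes were tested in KD, of which 3 were lower and 1 higher. The shares over all genes tested were 37.4% and 33.5%. *Gm6909* fell by 1.75 (SE 0.12) and *Gm7151* by 1.25 (SE 0.16) on the log2 scale. *Gm45598* was the gene that rose, by 4.63 (SE 0.57) from a mean of 1.33 counts in Ctrl libraries. *Gm18204* had a log2 change of -0.027 (SE 0.15, adjusted p = 0.88).

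Marker lists moved between KD and Ctrl as well. Of the 6 markers of the 2-cell embryo, the 3 in the table summed to 341 to 386 CPM in KD and 1402 to 1457 CPM in Ctrl. The 4 of 8 oocyte markers in it summed to 749 to 761 CPM in KD and 1183 to 1217 CPM in Ctrl, of which *Bmp15* made up 364 to 405 and 804 to 880.5 CPM. These 4 did not move together. *H1foo* was lower in KD as well (76.7 to 96.3 against 129 to 157 CPM), and *Mos* overlapped (7.65 to 10.0 against 8.87 to 11.6 CPM). *Zp3* went the other way, at 265 to 284 CPM in KD and 180 to 212 CPM in Ctrl. The 3 of 7 cumulus markers summed to 20.3 to 24.4 and 16.5 to 24.3 CPM, with *Ptx3* at 0 in all 6 libraries, and *Tnp1*, the 1 of 4 sperm markers present, was at 0 in KD and at 0.87 to 1.24 CPM in Ctrl. The part of a shift in developmental timing in the level of *Zscan4* was not tested.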

How the data were processed

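Per the labels and the methods of the study, the authors quantified SLIM-seq reads with kallisto and deposited estimated counts and TPM values per library. That the targets were whole gene spans of GRCm38 was read from their deposited lengths, such as 4816 bases for *Zscan4a*. For the knockdown experiment the authors used Trimmomatic for trimming and HISAT2 for alignment, and deposited raw counts of uniquely placed reads on exons from featureCounts 2.0.1, without strand. The merged knockdown table ends on chromosome 7 at position 108651906, beyond the cluster, because the file of KD replicate 3 stops there, and it holds 37.5% to 39.0% of the counts of the other 5 libraries.

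Estimated counts were rounded and fitted with edgeR 4.0.16 in R 4.3.3 (TMM scaling, the filter of edgeR on low counts, quasi-likelihood test, Benjamini-Hochberg adjustment over all genes tested, threshold 0.05). The 9 inputs, all 18 SLIM-seq libraries and the 6 knockdown libraries were fitted separately, with 1 coefficient per group, and the cluster sum replaced the members in a second fit of each. SE is the log2 change divided by the square root of F. Groups with at most 3 counts in each library were taken to be at the floor. Shares were compared by exact permutation tests in scipy 1.17.1. Transcripts and positions are from GENCODE M21, and upstream sequences from RefSeq, both GRCm38. Windows of 31 and 150 bases were compared among the 9 *Zscan4* copies on the strand of each gene, not with the rest of the genome. Each fit was first tested on simulated counts, in which well-expressed genes were changed. That test covers neither counts near the floor nor the division of reads between copies.

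Named were the 6 members, the 3 pseudogenes, genes between the members, up to 4 of the most abundant genes of each list (1 result is not reported here), *Ythdc1* and the 5 genes most like the cluster sum. Others, such as *Usp17le*, *Duxf3* and the genes of the stretch, were singled out after their values were seen, and so were the marker genes named. The members and the gene lists were chosen with earlier results of these data known. Alternatives were library size scaling, DESeq2 1.42.0, no filter, the replicate number as a block, the compared groups alone, the pseudogenes added, each library left out, and all annotated genes without KD replicate 3. Low counts limit precision for the members at MII and for *Zscan4b* and *Zscan4e* in the knockdown libraries. Intervals cover the spread between libraries.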

Additional observations from a re-analysis of the deposited data

Results flagged for a closer look

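The change of IP/input between stages passed the interaction test for *Zscan4c* and for the cluster sum, between MII oocytes and each embryo stage. For *Zscan4c* the change was -3.16 from MII to L1C and -2.90 from MII to L2C, and for the cluster sum -1.16 and -0.89. In MII libraries *Zscan4c* held 28.3 to 43.2 estimated counts in IP and 0 to 11.4 in input. Without MII input replicate 2, which held the 11.4 counts and in which the near-identical *Zscan4f* was at 0, the changes of *Zscan4c* were -5.20 and -4.94, and the part of the division of reads between the copies was not tested. The calls of the cluster sum were lost in 3 and 8 of 18 fits without 1 library, that from MII to L2C also with the replicate number as a block (adjusted p = 0.053), and both with the pseudogenes added (-0.19 and -0.019).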

How the results depend on the processing

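The rise of the cluster sum at each stage step and its fall in KD kept their direction and their call under every alternative run. Without 1 library at a time, the log2 change of the sum was 5.39 to 5.71 from MII to L1C, 1.94 to 2.26 from L1C to L2C, 7.51 to 7.82 from MII to L2C and -1.56 to -1.43 in KD. For IP/input it was 0.76 to 1.07 at MII, -0.39 to -0.044 at L1C and -0.14 to 0.15 at L2C, and the change of IP/input was -1.32 to -0.98 from MII to L1C, 0.076 to 0.42 from L1C to L2C and -1.07 to -0.73 from MII to L2C. Sums with the pseudogenes lost the call of IP/input at MII (0.045, adjusted p = 0.91) and those of its change from MII to L1C (-0.19) and from MII to L2C (-0.019). At MII these sums are mostly *Zscan4-ps1*, and the part of reads divided between it and the members was not tested. The change of IP/input from MII to L1C lost its call without MII IP replicate 1 (-0.99, adjusted p = 0.081), MII input replicate 1 (-1.03, adjusted p = 0.077) or MII input replicate 2 (-1.16, adjusted p = 0.055), and that from MII to L2C without any of 8 libraries (adjusted p up to 0.13). The uncalled IP/input of the sum turned its sign with library size scaling at L1C (0.074) and without the filter at L2C (-0.0048). The causes were not tested.

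Among members, uncalled IP/input values near 0 turned their sign with library size scaling: at L1C *Zscan4a* (0.087), *Zscan4c* (0.15), *Zscan4d* (0.023), *Zscan4e* (0.064) and *Zscan4f* (0.10), and at L2C *Zscan4a* (0.25), *Zscan4d* (0.20) and *Zscan4e* (0.15). With the compared groups alone, the change of IP/input from L1C to L2C was -0.095 for *Zscan4b* and -0.040 for *Zscan4e*, and *Zscan4b* passed downwards at L2C (-0.44). Without 1 library at a time, IP/input at L1C was -0.29 to 0.025 for *Zscan4c*, -0.36 to 0.018 for *Zscan4e* and -0.39 to 0.029 for *Zscan4f*. At L2C it was -0.13 to 0.073 for *Zscan4a*, -0.094 to 0.24 for *Zscan4c*, -0.28 to 0.068 for *Zscan4d*, -0.36 to 0.067 for *Zscan4e* and -0.034 to 0.23 for *Zscan4f*, and its change from L1C to L2C was -0.10 to 0.27 for *Zscan4b* and -0.13 to 0.31 for *Zscan4e*. The called IP/input of *Zscan4c* was 2.49 to 5.04 at MII and its changes were -5.20 to -2.65 from MII to L1C and -4.94 to -2.40 from MII to L2C, each with its call in every fit and farthest from 0 without MII input replicate 2. *Zscan4a* in KD also passed the test without the filter (adjusted p = 0.040) and without Ctrl replicate 3 (adjusted p = 0.015), and without 1 library at a time it was -0.27 to -0.098 (adjusted p up to 0.41). At MII *Zscan4f*, with at most 12 counts a library, passed downwards with DESeq2 (adjusted p = 0.018), without the filter (adjusted p = 0.0049), and without MII input replicate 2 or MII IP replicate 1, and *Zscan4d* passed upwards with library size scaling (adjusted p = 0.043).

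Same-numbered libraries did not deviate together (correlations of deviations from group means -0.15 to 0.16), and nothing in the labels ties a number to a shared batch, so the numbers were not taken to pair the samples, although the study took input and IP from the same batches. With the replicate number as a block the sum's change of IP/input from MII to L2C was -0.86 (adjusted p = 0.053), the uncalled IP/input of *Zscan4a* at L2C was 0.00019, and no other call of the sum changed.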
